A study of Mus musculus with 18 samples.

Results

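The comparison set 3 arrays of primary mouse hepatocytes treated with TNFalpha against 3 arrays treated with its vehicle, PBS, in cells that carried an adenovirus expressing PGC-1a4. These 6 arrays were chosen by their titles from the 18 of the series and are described across the 15491 genes that the analysed table named. All cells were wild-type hepatocytes of C57BL/6J mice, the parenchymal cells of the liver, cultured in medium with 25 mM glucose, and all, controls included, were infected for 48 hours with an adenovirus that also carries GFP in a reading frame of its own. The TNF groups then received 2 ng per mL of the cytokine and the PBS groups the vehicle, for 2 hours. The 12 other arrays formed the same pair of groups, 3 arrays each, with a virus for PGC-1a1, the full-length form of the coactivator PGC-1alpha, or with an empty vector as control. PGC-1a4 was thus supplied by virus to cells that kept their own gene. Nothing in the labels ties the 3 arrays of a group to separate cultures or mice, and the p-values therefore reflect array-to-array spread that can be purely technical.

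TNF binds its receptor on hepatocytes and assembles a complex of adaptors (TRADD, TRAF2, RIPK1 and the ubiquitin ligases BIRC2 and BIRC3) that activates the IkB kinase. That kinase marks the IkB proteins for degradation, and the freed NF-kB dimers enter the nucleus and switch on chemokines, adhesion molecules, survival genes and their own inhibitors within the first hours. A parallel branch through MAP kinases drives AP-1. PGC-1a4 is a splice form of PGC-1alpha without its C-terminal part, best known from skeletal muscle. The comparison asks which genes answered TNF in hepatocytes that carried this form.

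Values are log2 levels made with RMA, which corrects background, equalises arrays and summarises the probes of each probe set, and a log2 difference of 1 is a 2-fold change. Differences are given as TNF minus PBS, log2 ± SE with n = 3 arrays per group, and group means as mean ± SD. A gene was called when its limma p-value, adjusted by Benjamini-Hochberg over all genes, was under 0.05. Genes were named by a rule that takes the largest differences, the listed pathway members and the highest levels. Each gene was read from its brightest probe set on average, and of 4921 called genes with several, 1464 (29.8%) had another probe set called the other way. Such genes, 28 of the 373 that the rule takes, were counted and not named. A gene whose other probe set was merely not called could still be named. No level of one gene is compared with that of another, since probe sets differ in brightness. None of the 10 hepatocyte markers measured lay below the lower quartile on all 6 arrays. Of these markers 5 were called higher and 4 lower, 3 and 2 at least 2-fold, and after quantile normalization 4 higher and 4 lower. Albumin (Alb), which did not pass, lay at 15.58, 15.53 and 15.55 on the PBS arrays and at 15.66, 15.68 and 15.69 on the TNF arrays. In a bulk sample, fewer cells of a type and less RNA per cell cannot be told apart.

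The extent of the difference was large. Of 15491 genes, 10879 were called (70.2%), 5796 of them higher (37.4%) and 5083 lower (32.8%) on the TNF arrays. At the second threshold, which also asks for a difference of at least 2-fold, 3262 genes were called (21.1%), 2175 higher (14.0%) and 1087 lower (7.02%). The 3 TNF arrays lay wholly above or wholly below the 3 PBS arrays in 11474 genes (74.1%). The TNF arrays had medians of 7.06 to 7.07 and SDs over genes of 2.30 to 2.31, and the PBS arrays medians of 7.24 to 7.26 and SDs of 2.09 to 2.11, so the levels on the TNF arrays were spread more widely. Across probe sets the arrays correlated at 0.995 to 0.996 within PBS, 0.992 to 0.993 within TNF, and 0.930 to 0.937 between the treatments. Array set and treatment coincide here and cannot be told apart, and the same holds in the vector and PGC-1a1 cells.

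The direction of the difference also went with level. The median difference over all genes was 0.02, but it was -0.18 and -0.28 in the lowest and next lowest of 4 equal groups of genes by level, and 0.28 and 0.47 in the upper pair. In the lowest group 500 genes were called higher and 1470 lower, and in the highest 2507 higher and 725 lower. When all arrays were forced to one distribution by quantile normalization, 5018 genes were higher and 5276 lower, 2654 at least 2-fold, and 2164 of the 3262 genes were called at least 2-fold the same way. With each array centred on its median instead, every difference rose by 0.187, and 7131 genes were called higher and 3648 lower (66.2% against 53.3% of the calls). Counts for gene groups are therefore read against all genes, of which 37.4% were called higher and 32.8% lower, with quantile-normalized values where those turned a direction. How far the shape of the arrays entered any single call was not tested.

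**Figure D1:**
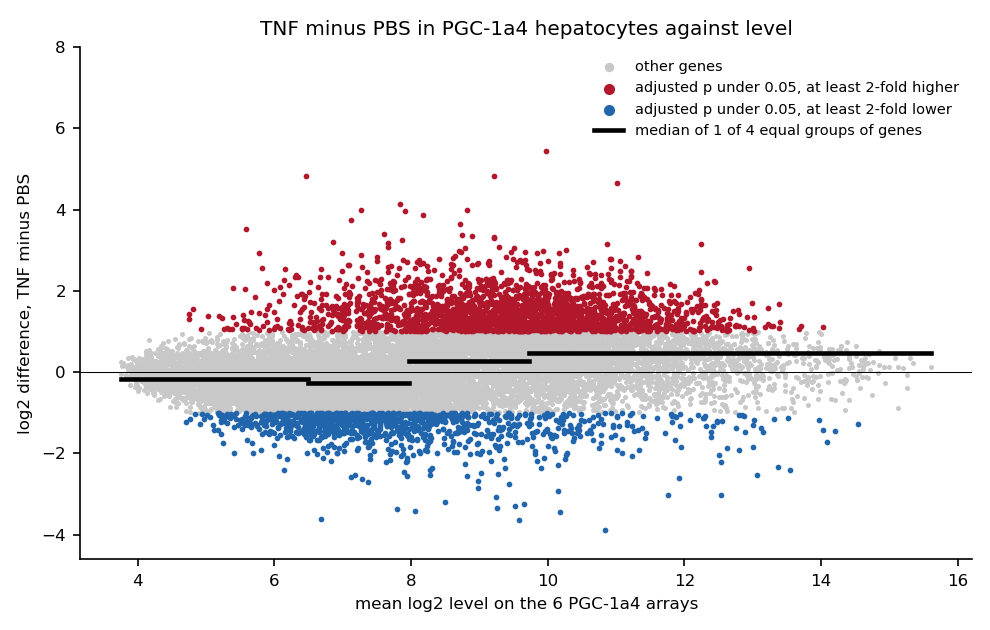
Log2 difference, TNF minus PBS, against the mean log2 level on the 6 PGC-1a4 arrays, 1 point per gene; coloured points were called at an adjusted p under 0.05 and at least 2-fold, and black bars are the medians of 4 equal groups of genes by level. The medians run from -0.28 to 0.47, with the higher-level groups above 0, and the highest point, Cxcl10, lies at 5.44.

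Ppargc1a, the mouse gene whose splice forms include PGC-1a4, had levels of 7.38, 6.93 and 7.03 under PBS and 6.74, 6.63 and 6.29 under TNF. Its difference of -0.56 ± 0.16 passed the test (adjusted p = 0.00399). That call ended after quantile normalization (-0.35), after cyclic loess (-0.27) and for the mean of its 3 probe sets (-0.15). The probe set does not tell the viral transcript or either form from the others by its label, so it is no check of the virus. Tnf itself lay at 8.11, 7.97 and 7.61 under PBS and at 7.58, 7.83 and 6.93 under TNF, a difference of -0.45 ± 0.23 that did not pass (adjusted p = 0.083). Tnf was called lower without PGC-1a4 TNF replicate 2 (-0.65, adjusted p = 0.0224) or PBS replicate 3 (-0.59, adjusted p = 0.0446).

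Chemokines, the secreted proteins that draw leukocytes to a site, held the largest difference of all genes named. Of the 26 measured chemokines, 13 were called higher and 3 lower. The median was 0.39, and 12 rose and 1 fell at least 2-fold. After quantile normalization 14 were higher and 3 lower, 12 and 1 at 2-fold, with a median of 0.52. Over all genes 14.0% rose and 7.02% fell by that much. Cxcl10, which attracts T cells through CXCR3, had PBS levels of 6.95, 7.57 and 7.22 and TNF levels of 12.63, 12.67 and 12.78. Every TNF array stood far above every PBS array, and the difference of 5.44 ± 0.17 was a 43.5-fold change (adjusted p = 1.4e-13). The neutrophil chemokine Cxcl1 rose from 10.84, 11.25 and 10.96 to 13.54, 13.47 and 13.41, by 2.45 ± 0.28. Its relative Cxcl3 rose by 4.82 ± 0.29, from levels of 3.87, 4.07 and 4.196 that lay below the lower quartile of the PBS arrays to 8.84, 8.84 and 8.93. Ccl2, the main attractant of monocytes, rose from 11.46, 11.94 and 11.56 to 14.30, 14.31 and 14.08, by 2.57 ± 0.27. Ccl20, the ligand of CCR6, rose from 9.75, 9.91 and 10.01 to 12.57, 12.21 and 11.89, and the groups did not overlap in any of these 5 genes. Cxcl9 (a second CXCR3 ligand, 1.99 ± 0.15), Ccl7 (1.91 ± 0.15), Ccl9 (1.78 ± 0.16), Ccl27a (1.71 ± 0.13), Cxcl5 (1.65 ± 0.42) and Ccl25 (1.499 ± 0.09) were the other named members of the 2-fold group, in which 1 gene counted as a pseudogene was not named, while Cxcl16 was called at only 0.37 ± 0.14. Cxcl16 was at -0.14 after quantile normalization and lost its call without PGC-1a4 TNF replicate 2 (adjusted p = 0.0808), PBS replicate 1 (0.0631) or PBS replicate 2 (0.0555). The 3 lower members were Cxcl15 at -1.34 ± 0.15, Ccl4 at -0.90 ± 0.16 and Ccl8 at -0.62 ± 0.12. Ccl5, a common NF-kB target in immune cells, gave 0.02 ± 0.14 and did not pass.

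**Figure D2:**
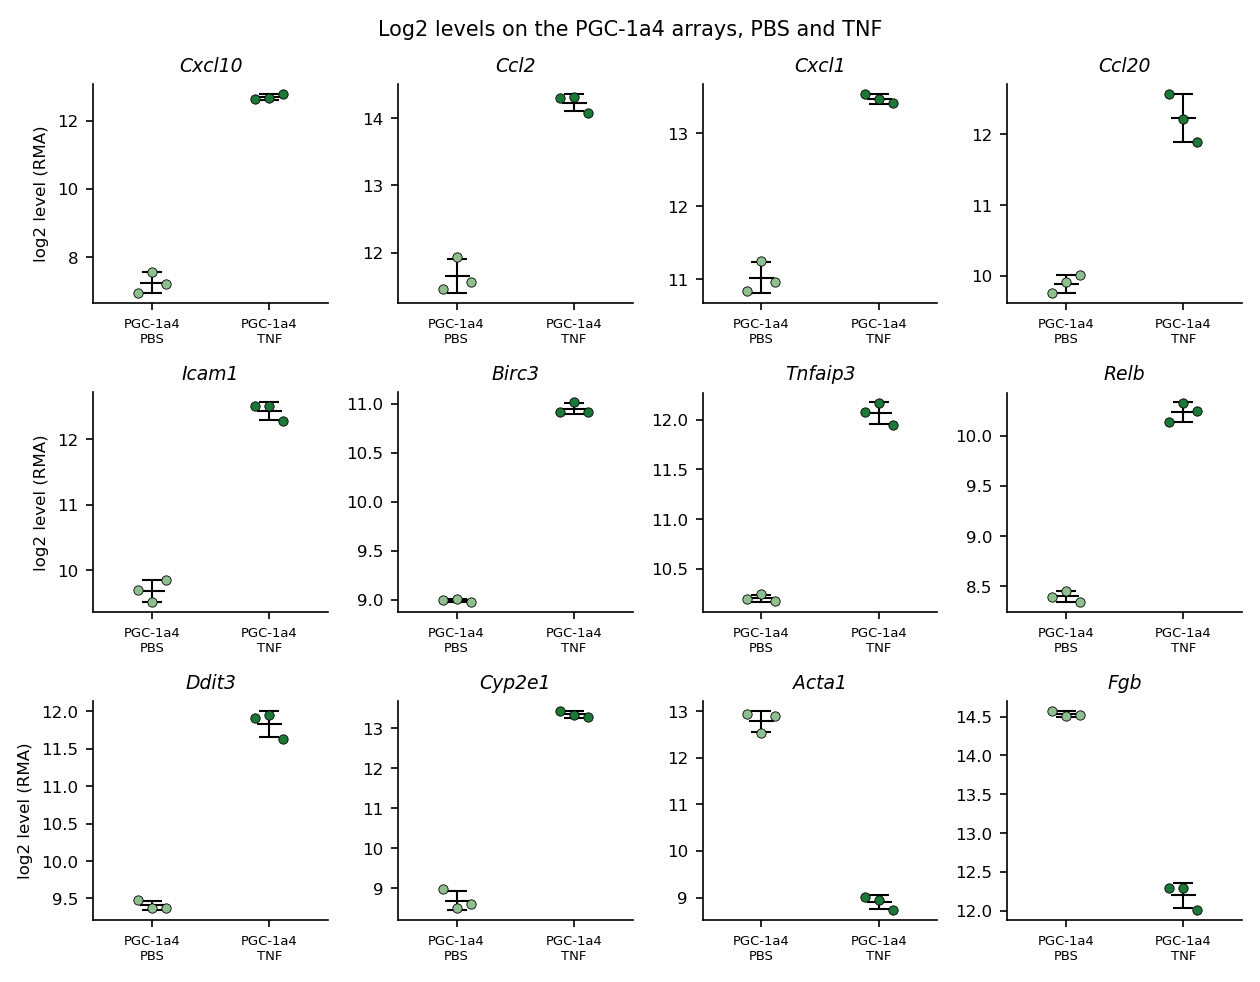
Log2 levels of 12 genes on the 3 PBS and 3 TNF arrays of PGC-1a4 hepatocytes; each point is 1 array, the long bar is the mean and the whiskers are the SD, and each panel has its own axis, which does not start at 0. In all 12 panels the groups are apart, upwards for 10 genes from Cxcl10 to Cyp2e1 and downwards for Acta1 and Fgb.

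The 250 bases before the annotated start site are shown for 3 of these chemokines and for the NF-kB inhibitor Tnfaip3, because all 4 rose at least 2-fold and carry a match to the NF-kB motif. The motif searched was GGGNNTTTCC, on both strands, and its matches are in capitals. The sequences are those of RefSeq on build GRCm38.p6, written 5' to 3' on the strand of the gene.
Cxcl1, chr5:90890995-90891244 (plus strand): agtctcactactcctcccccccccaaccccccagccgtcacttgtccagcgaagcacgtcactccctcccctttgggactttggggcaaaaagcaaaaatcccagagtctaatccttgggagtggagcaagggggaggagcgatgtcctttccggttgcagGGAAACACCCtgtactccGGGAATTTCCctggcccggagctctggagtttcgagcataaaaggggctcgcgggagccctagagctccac
Cxcl3, chr5:90785851-90786100 (plus strand): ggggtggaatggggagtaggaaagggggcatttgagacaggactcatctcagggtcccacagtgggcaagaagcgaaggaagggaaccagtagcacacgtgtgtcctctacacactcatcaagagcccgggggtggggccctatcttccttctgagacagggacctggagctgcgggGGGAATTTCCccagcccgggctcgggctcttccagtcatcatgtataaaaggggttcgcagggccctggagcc
Ccl20, chr1:83116516-83116765 (plus strand): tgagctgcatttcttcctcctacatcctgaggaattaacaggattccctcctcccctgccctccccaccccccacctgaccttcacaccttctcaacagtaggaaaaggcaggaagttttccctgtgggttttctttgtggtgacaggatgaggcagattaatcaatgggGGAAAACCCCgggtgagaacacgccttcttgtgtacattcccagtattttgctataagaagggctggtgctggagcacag
Tnfaip3, chr10:19015411-19015660 (minus strand): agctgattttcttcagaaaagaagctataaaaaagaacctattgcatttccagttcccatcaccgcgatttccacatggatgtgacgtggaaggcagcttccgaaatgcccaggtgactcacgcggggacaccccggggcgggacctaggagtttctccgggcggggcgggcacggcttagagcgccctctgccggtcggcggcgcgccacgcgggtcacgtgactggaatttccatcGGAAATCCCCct
Cxcl1 held 2 matches, 89 to 80 and 71 to 62 bases before the start, and Cxcl3 held 1 at 73 to 64 bases, with the same letters as the second of Cxcl1. The match of Ccl20 lay 80 to 71 bases before the start and that of Tnfaip3 12 to 3 bases before it, both on the opposite strand. The motif was found in 464 of the 32851 windows of the same kind in the table (1.41%). Counted by gene, with a match in any window of the gene, it was found in 209 of the 12327 genes tested that had a window (1.695%). By that count it was in 4 of 18 chemokines (Ccl9 was the other) and in 5 of 15 genes of the NF-kB list. It was also in 35 of 1779 genes at least 2-fold higher (1.97%) and in 17 of 842 genes at least 2-fold lower (2.02%). A match describes these letters and is no evidence of binding.

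The receptors, adaptors and kinases of the TNF receptor complex came next. The 23 measured genes of TNF receptor signalling included 13 called higher and 6 called lower, 7 and 0 of them at least 2-fold, with a median of 0.48. Quantile normalization left 11 higher and 8 lower, 7 and 1 at 2-fold, and a median of 0.10. Tnfrsf1a, which encodes the main TNF receptor, gave 0.18 ± 0.08, which turned to -0.27 after quantile normalization, and did not pass as deposited, and Tnfrsf1b, the second receptor, was at 0.48 ± 0.11. After quantile normalization Tnfrsf1a was called lower, and Tnfrsf1b, at 0.10, did not pass. Birc3, a ubiquitin ligase of the receptor complex and a classic NF-kB target, rose from 8.996, 9.01 and 8.98 to 10.92, 11.01 and 10.92, by 1.95 ± 0.09 (adjusted p = 3.6e-12). Its paralog Birc2 rose by 0.90 ± 0.13. A second probe set of Birc3 gave 0.28 and did not pass. Among the kinases, Ikbke rose from 8.75, 8.75 and 8.75 to 10.85, 10.81 and 10.87, by 2.09 ± 0.16, and Tbk1 by 2.06 ± 0.09, whereas Ikbkg, the regulatory subunit of the IkB kinase, was at -0.31 ± 0.09 and, with arrays centred on their medians, at -0.13 without passing. Tank, a binding partner of TBK1, rose by 1.61 ± 0.11, Sharpin, part of the linear ubiquitin ligase, by 1.42 ± 0.12, and the TAK1 adaptors Tab2 and Tab3 by 1.02 ± 0.09 and 1.40 ± 0.08. The third TAK1 adaptor, Tab1, went the other way at -0.54 ± 0.09, as did the adaptors Traf1 at -0.49 ± 0.15 and Traf5 at -0.54 ± 0.12. Traf1 did not pass after quantile normalization (-0.29), cyclic loess (-0.21) or median-centring (-0.30), nor as the mean of its probe sets (-0.10).

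Subunits of NF-kB and the proteins that restrain it were higher in nearly the whole list as deposited. Among 19 measured NF-kB subunits and inhibitors, 17 were higher and 1 lower. The median was 0.72, and 7 rose and 0 fell at least 2-fold. After quantile normalization 12 were higher and 1 lower, 7 and 0 at 2-fold, with a median of 0.43. Tnfaip3, which encodes A20, the enzyme that edits ubiquitin chains of the receptor complex, had levels of 10.20, 10.25 and 10.17 under PBS and 12.07, 12.17 and 11.95 under TNF. The difference of 1.86 ± 0.14 was a 3.62-fold rise (adjusted p = 2.9e-09). Relb, a subunit of the alternative NF-kB dimer, rose from 8.39, 8.46 and 8.35 to 10.14, 10.33 and 10.25, by 1.84 ± 0.12. The other subunits rose less, Rel by 0.88 ± 0.17, Nfkb2 by 0.55 ± 0.09 and Rela by 0.52 ± 0.09. Nfkb2 and Rela did not pass after quantile normalization (0.11 and 0.14) or cyclic loess (0.13 and 0.022). Of the IkB family, Nfkbie rose by 1.19 ± 0.16 and Nfkbiz by 1.30 ± 0.17. Nfkbia, the classic feedback inhibitor, rose from 12.58, 12.60 and 12.56 to 13.05, 13.00 and 12.99, by 0.43 ± 0.10, which became 0.16 after quantile normalization and -0.014 after cyclic loess and passed under neither. Zc3h12a, an RNase that cuts cytokine mRNAs, rose by 2.30 ± 0.20, Tnfaip8 by 1.27 ± 0.20, N4bp1 by 0.89 ± 0.09 and the A20 partner Tnip1 by 0.70 ± 0.12. Only Otud7b, another deubiquitinase, was called lower, at -0.52 ± 0.09, and Tnip2, at 0.23 ± 0.11, did not pass. After quantile normalization Tnip1 no longer passed, at 0.21, and Tnip2 did, at 0.43.

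Adhesion molecules and cytokines were divided, and so were all genes, with 37.4% called higher and 32.8% lower. Of the 17 measured genes of adhesion and matrix remodelling, 6 were called higher and 6 lower. The median was 0.03, and 3 rose and 4 fell at least 2-fold. After quantile normalization 6 were higher and 5 lower, 3 and 5 at 2-fold, with a median of 0.15. Icam1, the ligand of leukocyte integrins, rose from 9.69, 9.52 and 9.86 to 12.50, 12.51 and 12.28, by 2.74 ± 0.15, or 6.69-fold (adjusted p = 2.9e-11). Vcam1, the ligand of the integrin VLA-4, rose by 1.88 ± 0.12 and the collagenase Mmp13 by 2.56 ± 0.20, from dim levels of 4.56, 4.24 and 4.83. The lower members included fibronectin (Fn1, -1.44 ± 0.07), the integrin subunit Itga5 (-1.03 ± 0.12) and the protease inhibitor Timp2 (-1.74 ± 0.13). The 27 measured cytokines and growth factors of inflammation included 9 called higher and 9 called lower, 4 and 3 of them at least 2-fold, with a median of -0.26. Quantile normalization left 6 higher and 8 lower, 4 and 1 at 2-fold, and a median of -0.13. Without PGC-1a4 TNF replicate 3 only 1 was 2-fold lower. Il23a, which encodes the p19 chain of IL-23, rose from 5.97, 5.69 and 6.12 to 10.17, 10.01 and 9.51, by 3.97 ± 0.21, and on the PBS arrays it was in the dimmest 25% of genes. Hamp2 rose by 1.35 ± 0.22, Tnfsf9, the ligand of 4-1BB, by 1.26 ± 0.13, Ltb by 1.03 ± 0.11 and Fgf21 by 0.94 ± 0.25. Il17a at -1.12 ± 0.18, Tnfsf13b at -1.06 ± 0.18, Csf3 at -1.003 ± 0.14 and Tgfb1 at -0.99 ± 0.16 were among the lower members.

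Genes of the interferon response, best known for limiting viruses, rose in part. Among 34 measured interferon response genes, 17 were higher and 9 lower. The median was 0.34, and 12 rose and 3 fell at least 2-fold. After quantile normalization 15 were higher and 12 lower, 9 and 4 at 2-fold, with a median of 0.22. The higher members included the guanylate-binding proteins Gbp6, Gbp3 and Gbp2, which attack intracellular pathogens. Gbp6 rose from 7.27, 7.41 and 7.57 to 10.28, 10.35 and 9.996, by 2.79 ± 0.19 (adjusted p = 5.7e-10), Gbp3 by 2.28 ± 0.26 and Gbp2 by 2.02 ± 0.15. Rsad2, which encodes the antiviral enzyme viperin, rose from 8.14, 8.42 and 8.30 to 11.52, 11.35 and 10.29, by 2.77 ± 0.26. Xaf1 (1.91 ± 0.45), Isg20 (1.84 ± 0.15), Oasl1 (1.75 ± 0.14), Ifi35 (1.72 ± 0.15), Irf2 (1.56 ± 0.18), Bst2 (1.40 ± 0.16) and Ifih1 (1.21 ± 0.14) also passed 2-fold. Irf1, a direct target of NF-kB, rose by 0.76 ± 0.10. Other typical members were lower, among them Oas3 at -1.59 ± 0.11, Ifit2 at -1.48 ± 0.22 and Stat2, the interferon signal transducer, at -1.41 ± 0.09. Ifnb1, which encodes interferon beta, gave -0.10 ± 0.19 and did not pass. Of the 14 measured antigen processing genes, 6 were called higher and 4 lower, against 37.4% and 32.8% of all genes. The median was 0.14, and 1 rose and 0 fell at least 2-fold. After quantile normalization 5 were higher and 5 lower, 1 and 1 at 2-fold, with a median of -0.17. The 2-fold higher genes were 2 without PGC-1a4 TNF replicate 1 or 2, or PBS replicate 3. Nlrc5, the coactivator of class I genes, rose by 1.35 ± 0.10 and the immunoproteasome subunit Psmb10 by 0.85 ± 0.09, whereas H2-K1, a class I heavy chain, fell by 0.93 ± 0.07.

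As deposited, both the survival and the death genes of the TNF pathway had more members called higher than lower, as did all genes. Over all genes 37.4% were higher and 32.8% lower, and 14.0% and 7.02% at least 2-fold. The 14 measured survival genes of the BCL2 and IAP families included 10 called higher and 1 called lower, 3 and 1 of them at least 2-fold, with a median of 0.54. Quantile normalization left 6 higher and 3 lower, 2 and 1 at 2-fold, and a median of 0.11. Without PGC-1a4 TNF replicate 3 or PBS replicate 1 there were 2 lower. The higher genes besides Birc3 included Pim1, a survival kinase (1.61 ± 0.10), Sod2, the mitochondrial superoxide dismutase (1.11 ± 0.13), Bag1 (0.91 ± 0.09), Cflar, which encodes the caspase-8 inhibitor c-FLIP (0.58 ± 0.09), and Mcl1 (0.51 ± 0.08). Birc5, which encodes survivin, a protein of dividing cells, was the member called lower, at -1.49 ± 0.19, while Bcl2l1 at -0.26 ± 0.12 and Xiap at 0.15 ± 0.09, which turned to -0.33 after quantile normalization, did not pass. Bcl2l1 was called lower after quantile normalization (-0.72), after cyclic loess (-0.79) and as the mean of its 4 probe sets (-1.11). Xiap was called lower after quantile normalization and higher with arrays centred on their medians (0.33). Cflar lost its call after quantile normalization (0.10) and cyclic loess (0.095), and Mcl1 after cyclic loess (0.039). Among 24 measured pro-apoptotic genes and caspases, 12 were higher and 3 lower. The median was 0.27, and 7 rose and 1 fell at least 2-fold. After quantile normalization 11 were higher and 10 lower, 5 and 1 at 2-fold, with a median of 0.01. Pmaip1, which encodes NOXA, rose from 10.05, 9.85 and 9.96 to 11.87, 11.80 and 11.86, by 1.89 ± 0.10, and Bid, the link from caspase-8 to mitochondria, from 9.23, 9.33 and 9.40 to 11.19, 11.20 and 10.99, by 1.80 ± 0.10. The necroptosis effector Mlkl rose by 1.36 ± 0.11, its kinase Ripk3 by 1.02 ± 0.11, Htra2 by 1.37 ± 0.13, Dffb by 1.77 ± 0.12 and Bnip3 by 1.27 ± 0.25. A second probe set of Dffb gave 0.17 and did not pass. Casp8 was at 0.52 ± 0.09 as deposited, at 0.02 after quantile normalization and at -0.0083 after cyclic loess, and Bmf and Casp12 were lower at -0.61 ± 0.14 and -0.65 ± 0.12. Casp8 did not pass under either, nor Bmf after cyclic loess (-0.30).

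The immediate early genes that follow MAP kinase signals were mostly higher, against 37.4% of all genes called higher and 32.8% lower. Of the 26 measured AP-1 and immediate early genes, 18 were called higher and 4 lower. The median was 0.67, and 11 rose and 0 fell at least 2-fold. After quantile normalization 15 were higher and 6 lower, 7 and 1 at 2-fold, with a median of 0.62. Without PGC-1a4 TNF replicate 1 or 2 there was 1 that was 2-fold lower. Klf4 rose from 7.51, 7.65 and 7.50 to 10.86, 10.84 and 10.88, by 3.30 ± 0.08 (adjusted p = 2.4e-14). Maff, a small MAF factor, rose by 2.72 ± 0.10, the FOS-related Fosl1 by 2.69 ± 0.12 and Myc by 2.48 ± 0.13, each with no overlap between the groups. Egr2 (1.56 ± 0.20), Klf6 (1.499 ± 0.08), Fos (1.46 ± 0.09), Egr1 (1.30 ± 0.11), Ier2 (1.24 ± 0.10), Ier3 (1.06 ± 0.13) and Btg2 (1.05 ± 0.13) followed. A second probe set of Btg2 gave 0.0041 and did not pass. Jun and Junb were called at 0.31 ± 0.10 and 0.37 ± 0.13, but lay at -0.19 and -0.13 after quantile normalization. Without PGC-1a4 PBS replicate 2 their adjusted p-values were 0.102 and 0.0573, and without PBS replicate 1 that of Junb was 0.0607. The lower members were Ccn2, a target of SRF and YAP, at -0.95 ± 0.14, Fosb at -0.85 ± 0.17, Srf at -0.55 ± 0.08 and Nr4a3 at -0.50 ± 0.11. The 19 measured kinases and phosphatases of the MAP kinase pathways included 10 called higher and 5 called lower, 2 and 0 of them at least 2-fold, with a median of 0.23. Quantile normalization left 6 higher and 9 lower, 1 and 0 at 2-fold, and a median of -0.15. Without PGC-1a4 TNF replicate 3 it had 3 lower. The phosphatases that end MAP kinase signals, Dusp4 and Dusp6, were the 2-fold members, at 1.76 ± 0.10 and 1.27 ± 0.11, and Zfp36l2, which promotes decay of AU-rich mRNAs, was at 0.92 ± 0.09.

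Acute phase proteins, the plasma proteins by which the liver answers inflammation, differed from one another. Among 22 measured acute phase genes, 6 were higher and 11 lower. The median was -0.16, and 3 rose and 6 fell at least 2-fold. After quantile normalization 5 were higher and 14 lower, 2 and 7 at 2-fold, with a median of -0.42. With arrays centred on their medians the list's median was 0.02. Saa1, serum amyloid A, rose from 10.79, 10.30 and 10.92 to 13.77, 13.86 and 13.85, by 3.16 ± 0.15, or 8.93-fold (adjusted p = 6.4e-12). Orm2, which encodes an orosomucoid, rose by 2.92 ± 0.11 and Apcs, serum amyloid P, by 1.27 ± 0.10. The metallothioneins Mt1 and Mt2 rose by 0.53 ± 0.09 and 0.54 ± 0.11, and did not pass after cyclic loess (0.17 and 0.15). The fibrinogen chains all fell, Fgb from 14.57, 14.51 and 14.51 to 12.29, 12.30 and 12.01, by 2.33 ± 0.13, Fga by 2.21 ± 0.18 and Fgg by 1.18 ± 0.15. Haptoglobin (Hp) fell from 15.19, 15.17 and 15.18 to 14.04, 13.95 and 13.68, by 1.29 ± 0.11. Steap4, a metalloreductase, had one of the lowest differences of all genes at -3.43 ± 0.24, and Lrg1 was at -1.22 ± 0.10. C-reactive protein (Crp, 0.08 ± 0.13, turning to -0.38 after quantile normalization) and Serpina3n (0.00 ± 0.19, turning to -0.49) did not pass as deposited, and both were called lower after quantile normalization. Of the 26 measured complement and coagulation genes, 12 were called higher and 9 lower, against 37.4% and 32.8% of all genes. The median was 0.20, and 5 rose and 2 fell at least 2-fold. After quantile normalization 7 were higher and 11 lower, 3 and 6 at 2-fold, with a median of -0.09. The pore-forming complement component C9 rose from 9.94, 9.83 and 9.94 to 12.79, 12.72 and 12.68, by 2.83 ± 0.10, and C8a by 2.03 ± 0.14, while C2 fell by 1.37 ± 0.09. The 18 measured genes of the IL-6 and STAT3 axis included 12 called higher and 4 called lower, 7 and 0 of them at least 2-fold, with a median of 0.55. Quantile normalization left 8 higher and 6 lower, 4 and 2 at 2-fold, and a median of 0.16. Ptpn11, the phosphatase SHP2, rose by 1.96 ± 0.15, beside Pim1.

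Most measured genes of the stress pathways were called higher as deposited, against 37.4% of all genes. Among 40 measured genes of the unfolded protein and integrated stress responses, 31 were higher and 5 lower. The median was 0.73, and 16 rose and 1 fell at least 2-fold. After quantile normalization 23 were higher and 8 lower, 9 and 3 at 2-fold, with a median of 0.40. Ddit3, which encodes the stress factor CHOP, rose from 9.48, 9.37 and 9.37 to 11.91, 11.95 and 11.63, by 2.43 ± 0.09, or 5.38-fold (adjusted p = 5.4e-13). Nupr1 rose by 2.42 ± 0.08 and Pdia4, a disulfide isomerase of the endoplasmic reticulum, by 2.42 ± 0.09. Of the 32 measured heat shock genes, 20 were called higher and 7 lower. The median was 0.54, and 9 rose and 2 fell at least 2-fold. After quantile normalization 18 were higher and 9 lower, 2 and 3 at 2-fold, with a median of 0.27. Cyclic loess left 15 higher and 10 lower, with a median of 0.10. Hspa1b, an inducible HSP70, rose from 9.67, 9.26 and 9.64 to 12.25, 12.27 and 12.37, by 2.77 ± 0.13, with Hspa13 at 1.81 ± 0.10 and Dnajb9, a cochaperone of the endoplasmic reticulum, at 1.29 ± 0.08. The 25 measured p53 targets included 17 called higher and 1 called lower, 7 and 0 of them at least 2-fold, with a median of 0.66. Quantile normalization left 14 higher and 6 lower, 6 and 0 at 2-fold, and a median of 0.40. Besides Pmaip1, Plk3 rose by 2.10 ± 0.12 and the death receptor gene Eda2r by 1.496 ± 0.09. Among 24 measured NRF2 targets and glutathione genes, 17 were higher and 5 lower. The median was 0.67, and 9 rose and 0 fell at least 2-fold. After quantile normalization 14 were higher and 5 lower, 6 and 0 at 2-fold, with a median of 0.23. Cyclic loess left 11 higher and 7 lower. The cystine transporter Slc7a11 rose from 9.46, 9.50 and 9.21 to 11.83, 11.75 and 11.90, by 2.44 ± 0.11, the quinone reductase Nqo1 by 2.28 ± 0.10 and the pentose phosphate enzyme Taldo1 by 2.02 ± 0.07.

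**Figure D3:**
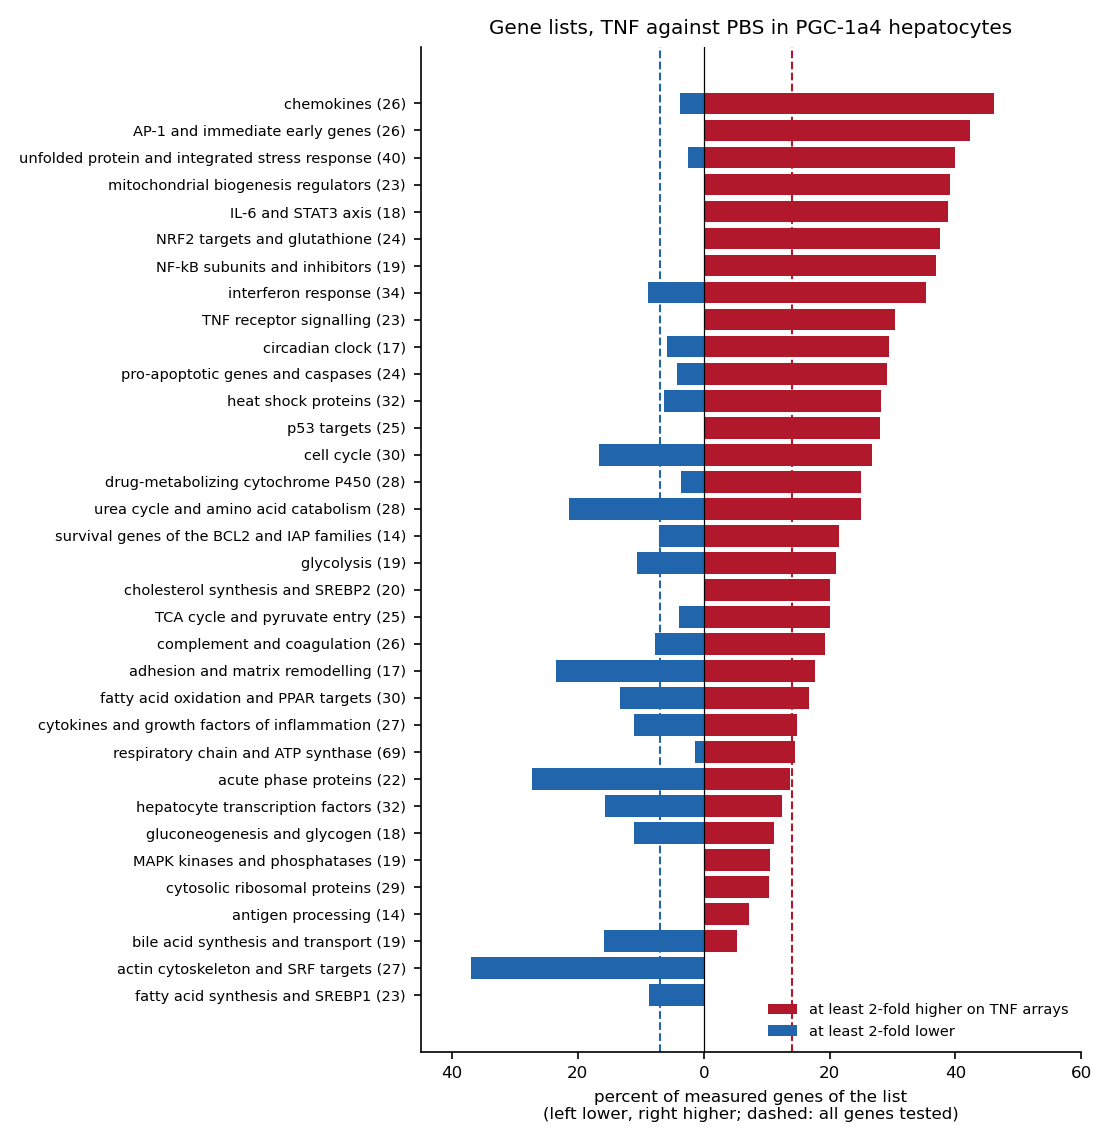
Percent of the measured genes of each list (number in brackets) called at least 2-fold higher (right) or lower (left) on the TNF arrays of PGC-1a4 hepatocytes; dashed lines mark all genes tested, 14.0% higher and 7.02% lower. Chemokines have the longest bar to the right, at 12 of 26 of their genes, and actin and SRF targets the longest to the left, at 10 of 27.

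Among the genes that mark hepatocyte function, individual enzymes moved far in both directions. Cyp2e1, the cytochrome P450 that oxidises ethanol, rose from 8.97, 8.51 and 8.60 to 13.43, 13.33 and 13.27, by 4.65 ± 0.19, or 25.2-fold (adjusted p = 1.1e-12). Of the 28 measured drug-metabolizing cytochrome P450 genes, 12 were called higher and 7 lower, against 37.4% and 32.8% of all genes. The median was 0.09, and 7 rose and 1 fell at least 2-fold. After quantile normalization 10 were higher and 9 lower, 5 and 3 at 2-fold, with a median of 0.00. Cyp2c50 rose by 2.21 ± 0.13 and the vitamin D 25-hydroxylase Cyp2r1 by 1.55 ± 0.13. The 32 measured hepatocyte transcription factors included 12 called higher and 15 called lower, 4 and 5 of them at least 2-fold, with a median of -0.07. Quantile normalization left 8 higher and 16 lower, 3 and 7 at 2-fold, and a median of -0.24. Onecut1 (HNF6) fell from 7.43, 7.19 and 7.43 to 5.11, 4.87 and 4.84, by 2.41 ± 0.13, and Hnf4a, the central regulator of hepatocyte identity, from 12.18, 11.92 and 12.09 to 10.75, 10.69 and 10.62, by 1.37 ± 0.10. The Notch target Hes1 (1.24 ± 0.09) and the clock output factor Nfil3 (1.54 ± 0.08) rose. Among 19 measured genes of bile acid synthesis and transport, 5 were higher and 12 lower. The median was -0.41, and 1 rose and 3 fell at least 2-fold. After quantile normalization 3 were higher and 11 lower, 2 and 3 at 2-fold, with a median of -0.52. The 2-fold lower genes were 5 without PGC-1a4 PBS replicate 2, and the 2-fold higher ones 2 without PGC-1a4 TNF replicate 2 or PBS replicate 3. Fgfr4, the receptor through which FGF15 shuts off bile acid synthesis, fell by 1.38 ± 0.09, whereas Cyp7b1, of the alternative bile acid pathway, rose by 1.62 ± 0.12 and Hsd3b7 by 0.91 ± 0.09.

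Lists of energy metabolism followed, to be read beside the 37.4% of all genes called higher and the 32.8% called lower. Of the 19 measured glycolysis genes, 7 were called higher and 6 lower. The median was 0.15, and 4 rose and 2 fell at least 2-fold. After quantile normalization 7 were higher and 7 lower, 2 and 3 at 2-fold, with a median of -0.09. Pklr, the liver pyruvate kinase, fell from 11.70, 11.51 and 11.64 to 8.74, 8.75 and 8.59, by 2.92 ± 0.14, while the glucose transporter Slc2a1 rose by 2.49 ± 0.10 and the glycolytic regulator Pfkfb3 by 1.90 ± 0.12. The 18 measured gluconeogenesis and glycogen genes included 10 called higher and 4 called lower, 2 and 2 of them at least 2-fold, with a median of 0.32. Quantile normalization left 5 higher and 7 lower, 2 and 2 at 2-fold, and a median of -0.10. G6pc, which releases free glucose, fell from 9.64, 9.28 and 9.50 to 7.65, 7.74 and 7.91, by 1.70 ± 0.17, and the glycogen-targeting subunit Ppp1r3b by 1.53 ± 0.15. Among 30 measured fatty acid oxidation genes and PPAR targets, 13 were higher and 11 lower. The median was 0.05, and 5 rose and 4 fell at least 2-fold. After quantile normalization 10 were higher and 16 lower, 4 and 6 at 2-fold, with a median of -0.25. The fatty acid transporter Cd36 fell by 2.56 ± 0.19 and Fabp2, an intestinal-type fatty acid binding protein, rose by 2.18 ± 0.13. Of the 23 measured genes of fatty acid synthesis and SREBP1, 8 were called higher and 8 lower. The median was -0.09, and 0 rose and 2 fell at least 2-fold. After quantile normalization 0 were higher and 16 lower, 0 and 2 at 2-fold, with a median of -0.40. Gpam, which starts triglyceride synthesis, fell by 1.13 ± 0.10 and Me1 by 0.57 ± 0.08. The 20 measured genes of cholesterol synthesis and SREBP2 included 12 called higher and 4 called lower, 4 and 0 of them at least 2-fold, with a median of 0.34. Quantile normalization left 8 higher and 9 lower, 2 and 1 at 2-fold, and a median of -0.13. Cyp51 rose by 1.20 ± 0.10 and Pmvk by 1.44 ± 0.15. Among 28 measured genes of the urea cycle and amino acid catabolism, 11 were higher and 8 lower. The median was 0.06, and 7 rose and 6 fell at least 2-fold. After quantile normalization 8 were higher and 13 lower, 5 and 7 at 2-fold, with a median of -0.18. Glud1, glutamate dehydrogenase, fell from 14.75, 14.76 and 14.73 to 12.39, 12.34 and 12.29, by 2.41 ± 0.07, while Bckdhb rose by 2.07 ± 0.10 and Oat by 1.43 ± 0.08. Of the 25 measured genes of the TCA cycle and pyruvate entry, 13 were called higher and 5 lower. The median was 0.25, and 5 rose and 1 fell at least 2-fold. After quantile normalization 10 were higher and 10 lower, 3 and 2 at 2-fold, with a median of -0.11. Pdk4, the kinase that closes pyruvate dehydrogenase, rose by 2.054 ± 0.11, and Idh3g and Pdhb by 1.18 ± 0.09 and 1.03 ± 0.08. The 69 measured subunits of the respiratory chain and ATP synthase included 51 called higher and 9 called lower, 10 and 1 of them at least 2-fold, with a median of 0.53. Quantile normalization left 37 higher and 14 lower, 4 and 1 at 2-fold, and a median of 0.17. Cyclic loess left a median of 0.06. Ndufa4 rose by 1.52 ± 0.09 and Uqcrc2 by 1.29 ± 0.07. Among 23 measured regulators of mitochondrial biogenesis, 12 were higher and 6 lower. The median was 0.23, and 9 rose and 0 fell at least 2-fold. After quantile normalization 10 were higher and 8 lower, 5 and 0 at 2-fold, with a median of -0.17. Sirt1, the deacetylase that acts on PGC-1alpha, rose by 2.30 ± 0.12, Tfb2m, a mitochondrial transcription factor, by 1.71 ± 0.09 and Pprc1, a relative of PGC-1alpha, by 1.30 ± 0.08. Of the 17 measured clock genes, 10 were called higher and 5 lower. The median was 0.32, and 5 rose and 1 fell at least 2-fold. After quantile normalization 9 were higher and 4 lower, 5 and 2 at 2-fold, with a median of 0.35. Without PGC-1a4 PBS replicate 1 there were 3 lower, and without PBS replicate 2 no clock gene was 2-fold lower. The repressor Cry1 rose by 2.35 ± 0.10 and Ciart by 1.55 ± 0.10.

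The actin cytoskeleton list had the largest share of 2-fold lower genes. The 27 measured actin cytoskeleton genes and SRF targets included 4 called higher and 20 called lower, 0 and 10 of them at least 2-fold, with a median of -0.67. Quantile normalization left 4 higher and 20 lower, 0 and 11 at 2-fold, and a median of -0.90. Median-centring, the scaling that moved values up, left 17 lower. Acta1, skeletal alpha-actin and a classic target of serum response factor (SRF), had the lowest difference of the named genes. It went from 12.94, 12.53 and 12.89 under PBS to 9.01, 8.95 and 8.73 under TNF, a difference of -3.89 ± 0.13, or 14.8-fold lower (adjusted p = 2e-13). Its promoter is shown because the fall was so large and because it carries the CArG box, the SRF motif, which is in capitals.
Acta1, chr8:123894776-123895025 (minus strand): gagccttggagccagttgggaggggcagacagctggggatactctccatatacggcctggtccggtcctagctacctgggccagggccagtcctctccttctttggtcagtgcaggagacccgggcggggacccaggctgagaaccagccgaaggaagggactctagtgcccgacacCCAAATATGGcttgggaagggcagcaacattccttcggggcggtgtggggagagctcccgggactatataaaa
The CArG match lay 73 to 64 bases before the start. That motif was found in 482 of the 32851 windows (1.47%) and, counted by gene, in 184 of the 12327 genes tested that had a window (1.49%). By gene it was in 3 of 24 of the actin list, in 22 of 1779 at least 2-fold higher (1.24%) and in 13 of 842 at least 2-fold lower (1.54%). Cardiac actin (Actc1, -3.25 ± 0.13), calponin (Cnn1, -3.41 ± 0.13), beta-tropomyosin (Tpm2, -3.03 ± 0.10), the actin-severing protein cofilin (Cfl1, -3.03 ± 0.09) and the adaptor Fblim1 (-2.86 ± 0.17) were also among the 15 lowest. Alpha-actinin 4 (Actn4, -1.91 ± 0.07) and thymosin beta 4 (Tmsb4x, -1.85 ± 0.07) fell less.

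Among 30 measured cell cycle genes, 14 were higher and 10 lower, against 37.4% and 32.8% of all genes. The median was 0.13, and 8 rose and 5 fell at least 2-fold. After quantile normalization 11 were higher and 14 lower, 5 and 6 at 2-fold, with a median of -0.20. Ccne2, cyclin E2, rose from 8.92, 9.07 and 8.77 to 11.18, 11.21 and 11.24, by 2.29 ± 0.13, and the replication helicase subunit Mcm6 by 1.47 ± 0.07. Of the 29 measured cytosolic ribosomal protein genes, 20 were called higher and 1 lower. The median was 0.24, and 3 rose and 0 fell at least 2-fold. After quantile normalization 14 were higher and 3 lower, 3 and 0 at 2-fold, with a median of 0.12. The 1 lower gene was not called without PGC-1a4 TNF replicate 1 or PBS replicate 2. Rps6 rose by 1.84 ± 0.15, Rpl14 by 1.70 ± 0.10 and Rpl12 by 1.49 ± 0.09. Under cyclic loess this list turned, with 8 higher, 11 lower and a median of -0.13.

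The remaining genes with the highest differences had no common list. Serpinb9g, a serpin that inhibits granzyme B-like proteases, rose from 6.93, 6.68 and 6.81 to 11.52, 11.63 and 11.75, by 4.82 ± 0.12. Sema3e, a secreted semaphorin, rose from 6.53, 7.08 and 6.83 to 10.80, 10.68 and 10.96, by 3.99 ± 0.13. Sult1e1, the estrogen sulfotransferase, rose by 3.35 ± 0.10, Dppa3 by 3.63 ± 0.17, Lce1d by 3.88 ± 0.27 and Atp13a4 by 3.37 ± 0.15. For Nefm (neurofilament M, 4.14 ± 0.14), Paip1, a partner of poly(A)-binding protein (3.999 ± 0.23), Calr3 (3.75 ± 0.14), H2-Q2 (3.52 ± 0.19) and Slc25a36 (3.41 ± 0.16) the PBS mean lay below the lower quartile of the PBS arrays. At the low end stood Bicc1, an RNA-binding protein, at -3.63 ± 0.18, the methionine sulfoxide reductase Msrb3 at -3.61 ± 0.14, Myof at -3.38 ± 0.18, the protease Ctse at -3.34 ± 0.14, the flavin monooxygenase Fmo5 at -3.29 ± 0.14, Psg28 at -3.21 ± 0.12 and F8a at -3.08 ± 0.30. A second probe set of F8a gave 0.14 and did not pass. Genes were named here only if their TNF arrays lay wholly apart from their PBS arrays.

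The naming rule also took the 15 genes with the highest PBS levels among those that differed at least 2-fold, a choice that leaves little room on the scale for a rise, so that their common direction, lower, is no result. Besides Cfl1, Glud1, Fgb, Actn4, Tmsb4x, Fn1 and Hp they included Igfbp4, a binding protein of insulin-like growth factors (-2.54 ± 0.11), Tmem176b (-1.73 ± 0.12), Tmem176a (-1.48 ± 0.10), progranulin (Grn, -1.44 ± 0.08), Nedd4 (-1.37 ± 0.08), Aldh1a1 (-1.18 ± 0.14) and calreticulin (Calr, -1.13 ± 0.07).

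Markers of other liver cells were present at low to middle levels. Some of them were called, as were 37.4% of all genes higher and 32.8% lower. Of 9 markers of Kupffer cells and macrophages, 2 were higher and 3 lower, their mean level was 7.52 to 7.58 on the PBS arrays and 7.51 to 7.69 on the TNF arrays, and Aif1 lay below the lower quartile of all 6 arrays. Cd14, a pattern recognition receptor that hepatocytes can also express, rose by 1.60 ± 0.12, and Mpeg1 fell by 1.03 ± 0.14. The 12 markers of endothelial cells had 5 higher and 5 lower members, their mean level was 7.18 to 7.28 on the PBS arrays and 7.39 to 7.49 on the TNF arrays, with Tek below the lower quartile on all 6. Of 13 markers of stellate cells and fibroblasts, 2 were higher and 7 lower, their mean level was 7.01 to 7.02 on the PBS arrays and 6.603 to 6.77 on the TNF arrays, and Ngfr lay below the lower quartile of all 6 arrays. The 8 markers of cholangiocytes had 3 higher and 3 lower members, their mean level was 7.94 to 8.01 on the PBS arrays and 7.81 to 7.94 on the TNF arrays, with Krt7 and Cftr below the lower quartile on all 6. Of 14 markers of lymphocytes and neutrophils, 1 was higher and 9 lower, their mean level was 6.91 to 7.03 on the PBS arrays and 6.46 to 6.59 on the TNF arrays, and Cd3g and Ptprc lay below the lower quartile of all 6 arrays. Scaling changed these counts. After quantile normalization 3 macrophage markers were higher and 3 lower, 6 and 3 endothelial markers, and 2 and 3 stellate markers. It left 3 and 2 cholangiocyte markers and 2 and 7 markers of lymphocytes and neutrophils. Cyclic loess left 2 stellate markers lower. The part of these cells in the results above was not tested.

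The response to TNF in the PGC-1a4 cells was set against that of the vector cells, with which it shares no array. Across genes the 2 responses correlated at r = 0.906, a description over genes that are not independent replicates and whose TNF arrays share one set. Of the 3262 genes at least 2-fold in PGC-1a4 cells, 3198 were called the same way in vector cells, where 71.3% of all genes were called, and 1 the opposite way. The test of the difference between the responses, in which an offset common to all TNF arrays cancels, called 2480 genes (16.0%), 1841 with a higher value in PGC-1a4 (11.9%) and 639 with a lower one (4.12%). Of these, 280 differed by at least 2-fold (1.81%), 223 above (1.44%) and 57 below (0.368%). After quantile normalization the split was 1294 above and 922 below, and 1839 of the 2480 genes were still called.

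**Figure D4:**
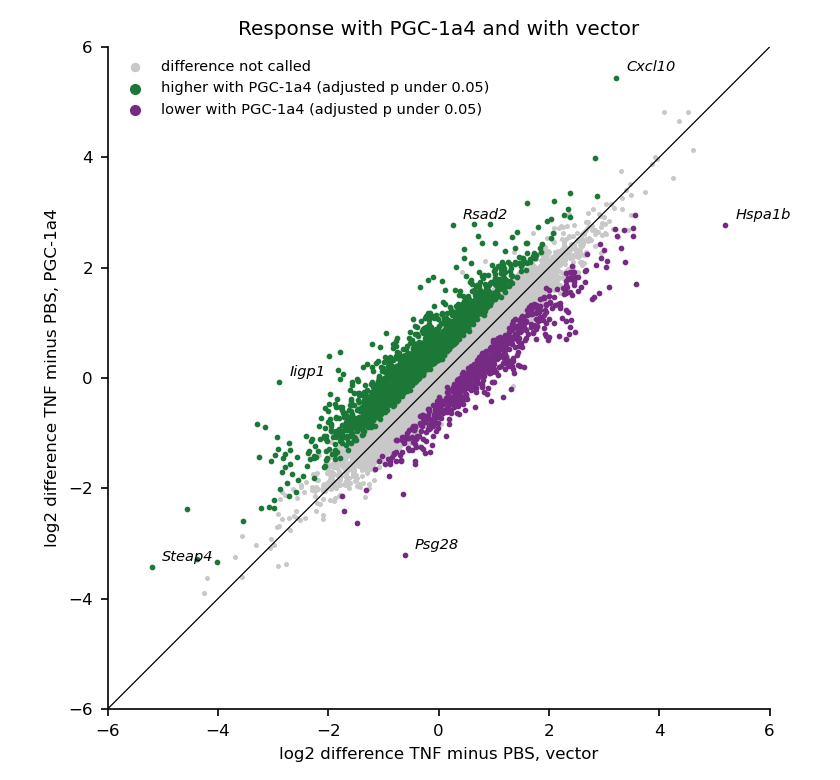
Log2 difference, TNF minus PBS, in PGC-1a4 hepatocytes (vertical) against vector hepatocytes (horizontal), 1 point per gene, with the line of equal response; coloured genes had a response that differed between them at an adjusted p under 0.05. Most genes lie near the line (r = 0.906), Cxcl10, Rsad2 and Iigp1 above it and Hspa1b and Psg28 below it.

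Interferon-related genes were among those whose response was above that of vector. Of the 34 interferon response genes, 10 had a response above that of vector and 0 below it, against 11.9% and 4.12% of all genes. Iigp1, an immunity-related GTPase, had PBS levels of 11.60, 11.56 and 11.61 and TNF levels of 8.92, 9.01 and 8.18 in vector cells, and 11.77, 11.75 and 11.71 and 11.87, 11.74 and 11.39 in PGC-1a4 cells. It fell in vector and did not pass in PGC-1a4 as deposited, where it was called lower after quantile normalization (-0.53) and cyclic loess (-0.61). The difference of responses was 2.81 ± 0.31 (adjusted p = 3.5e-05). Rsad2 went from 9.42, 8.96 and 9.25 to 9.58, 9.80 and 9.03 in vector and, as given above, from a mean of 8.28 ± 0.14 to 11.05 ± 0.67 in PGC-1a4, a difference of responses of 2.51 ± 0.36 (adjusted p = 0.00024). Gbp6 (1.85 ± 0.27), Gbp2 (1.71 ± 0.22), Irf1 (1.13 ± 0.14) and the ubiquitin-like Ubd (2.25 ± 0.21) also responded above vector. For antigen processing genes it was 6 above and 0 below, of 14. Without PGC-1a4 TNF replicate 1 or 2, or PGC-1a4 PBS replicate 1, this count fell to 3, and without Vector TNF or PBS replicate 2 there was 1 below. Cyclic loess left 3 above and 1 below.

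Chemokines and NF-kB inhibitors also had more members above vector than below, as did all genes, at 11.9% and 4.12%. In the list of 26 chemokines, 11 lay above and 1 below. Cxcl10 rose by 3.21 in vector and 5.44 in PGC-1a4, a difference of 2.23 ± 0.24 (adjusted p = 2.6e-05). Ccl2 had levels of 11.65, 13.24 and 12.66 and 13.24, 13.25 and 13.23 in vector under PBS and TNF, and its response differed by 1.85 ± 0.39. Differences of 1.97 ± 0.23 for Ccl9, 1.87 ± 0.43 for Ccl20 and 1.66 ± 0.40 for Cxcl1 followed, and Cxcl12 alone was below, at -0.73 ± 0.15, a call lost with its probe set of largest interquartile range (-0.12). Cxcl5, at 1.99 ± 0.59 (adjusted p = 0.028), was called on all arrays, but leaving out any 1 of PGC-1a4 TNF replicates 1 and 2, PGC-1a4 PBS replicates 2 and 3, Vector TNF replicate 2, and Vector PBS replicates 2 and 3 ended the call (adjusted p = 0.0537 to 0.0657). With PGC-1a4 PBS replicate 2 left out 6 chemokines lay above, and the number was 7 after quantile normalization, without PGC-1a4 TNF replicate 1, or with Vector PBS replicate 3 left out. Of the 19 NF-kB subunits and inhibitors, 10 responded above vector and 0 below it. Tnfaip3 had vector levels of 10.24, 10.89 and 10.52 under PBS, which spread more widely than the 10.20, 10.25 and 10.17 of PGC-1a4, and 11.08, 11.03 and 11.04 under TNF, and its response differed by 1.35 ± 0.20 (adjusted p = 0.0003). Nfkbie (1.04 ± 0.22), Nfkbia (0.93 ± 0.15) and Tnip1 (0.71 ± 0.17) were above too. For genes of TNF receptor signalling it was 6 above and 0 below, of 23. Ikbke differed by 1.502 ± 0.23 and Birc2 by 1.19 ± 0.19, while the difference of Birc3, 0.18 ± 0.12, did not pass. The pattern recognition receptor Tlr2, which binds bacterial lipoproteins, rose from 7.05, 6.97 and 7.01 to 9.84, 9.92 and 9.62 in PGC-1a4 and from 7.07, 7.38 and 7.396 to 7.87, 8.05 and 7.86 in vector, a difference of 2.14 ± 0.20 (adjusted p = 7.2e-06).

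Several acute phase genes that fell in vector cells fell less, or did not pass, in PGC-1a4 cells. In the list of 22 acute phase genes, 14 lay above and 0 below, against 11.9% and 4.12% of all genes. Crp went from 11.49, 11.31 and 11.26 to 9.94, 9.49 and 9.47 in vector and from 11.68, 11.25 and 11.53 to 11.66, 11.54 and 11.50 in PGC-1a4, a difference of 1.80 ± 0.19 (adjusted p = 1.9e-05). Hp fell from 14.93, 15.21 and 15.06 to 12.31, 12.13 and 12.01 in vector, by more than the 1.29 ± 0.11 of PGC-1a4 (difference 1.63 ± 0.15). Steap4 differed by 1.77 ± 0.34, Serpina3n by 1.08 ± 0.27 and Lrg1 by 1.02 ± 0.15, while Saa1, at 0.04 ± 0.21, did not pass. Hnf4a fell by 2.78 in vector and 1.37 ± 0.10 in PGC-1a4, a difference of 1.41 ± 0.15. Of the 26 complement and coagulation genes, 10 responded above vector and 0 below it. The 10 became 6 without PGC-1a4 TNF replicate 2 or PGC-1a4 PBS replicate 2, and 6 with 1 below after quantile normalization. For fatty acid oxidation genes and PPAR targets it was 9 above and 0 below, of 30. In the list of 18 gluconeogenesis and glycogen genes, 8 lay above and 0 below. Of the 30 cell cycle genes, 9 responded above vector and 0 below it. Single arrays left out gave 1 gene below in each of these 4 lists: PGC-1a4 TNF replicate 2 or Vector PBS replicate 2 for complement, Vector TNF replicate 1 for fatty acid oxidation, PGC-1a4 PBS replicate 2 for gluconeogenesis, and PGC-1a4 PBS replicate 1 or Vector TNF replicate 2 for the cell cycle. Cyclic loess left 5 above and 1 below for gluconeogenesis. G6pc, of that list, differed by 1.14 ± 0.25. Other genes with the highest differences were Glyctk, glycerate kinase (2.46 ± 0.18), Maob, monoamine oxidase B (2.25 ± 0.25) and Fgf13 (2.196 ± 0.34), all called lower in both cell groups and less so in PGC-1a4.

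**Figure D5:**
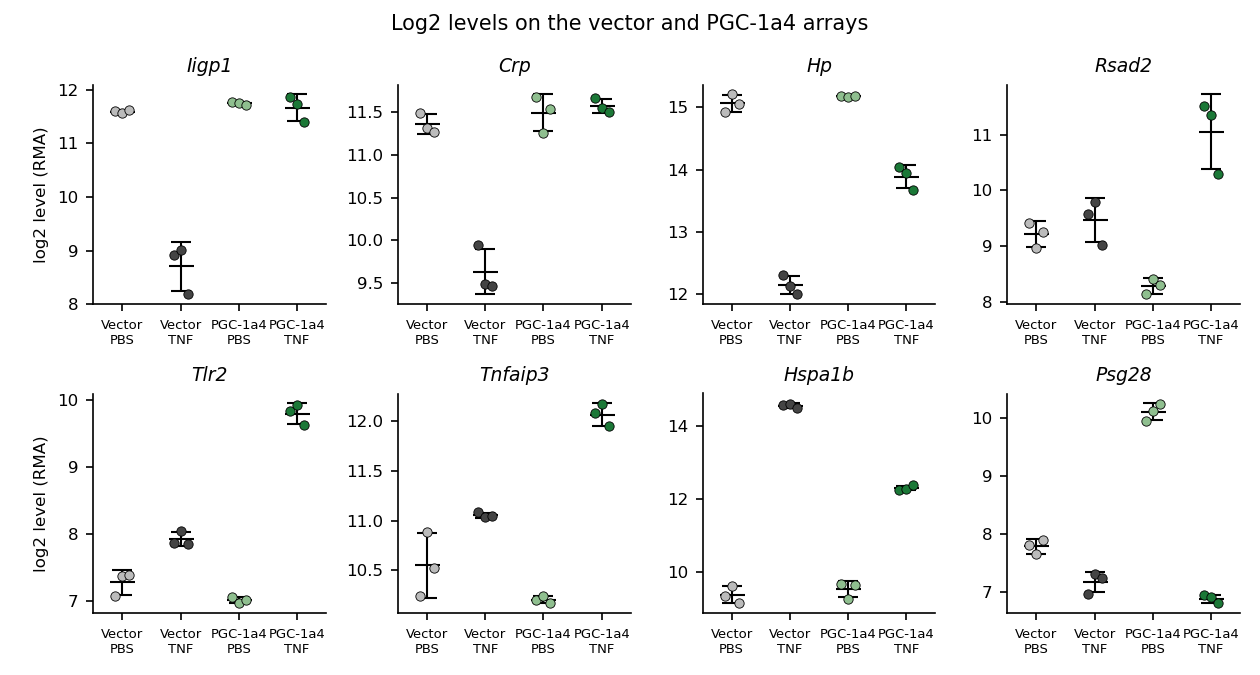
Log2 levels of 8 genes on the vector and PGC-1a4 arrays under PBS and TNF; each point is 1 array, the long bar is the mean and the whiskers are the SD (n = 3), and each panel has its own axis, which does not start at 0. Iigp1, Crp and Hp drop further in vector than in PGC-1a4, Rsad2, Tlr2 and Tnfaip3 rise further in PGC-1a4, Hspa1b rises further in vector and Psg28 drops further in PGC-1a4.

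Heat shock and endoplasmic reticulum stress genes went the other way. Over all genes 11.9% lay above vector and 4.12% below it, shares to be read beside each list here. For heat shock genes it was 0 above and 15 below, of 32. Hspa1b rose from 9.33, 9.61 and 9.15 to 14.57, 14.61 and 14.50 in vector, by 5.198, against 2.77 in PGC-1a4, a difference of -2.43 ± 0.18 (adjusted p = 6.7e-07). In the list of 40 genes of the unfolded protein and integrated stress responses, 5 lay above and 16 below. The 5 above became 2 without PGC-1a4 TNF replicate 2, and 3 without any 1 of PGC-1a4 TNF replicate 1, PGC-1a4 PBS replicates 2 and 3, Vector TNF replicates 2 and 3, and Vector PBS replicates 2 and 3. Pdia4 differed by -0.50 ± 0.13 and Ddit3, at -0.17 ± 0.13, did not pass. The immediate early genes Egr1 (-0.90 ± 0.15) and Maff (-0.80 ± 0.14) and the phosphatase Dusp6 (-0.93 ± 0.15) responded less than in vector. Their lists held 5 members above and 4 below, of 26 (AP-1 and immediate early genes, 3 above without PGC-1a4 PBS replicate 3), and 3 above and 2 below, of 19 (MAP kinase pathways). The lowest difference was that of Psg28, a gene of the pregnancy-specific glycoprotein family, which lay at 7.82, 7.65 and 7.90 in vector and 9.95, 10.11 and 10.24 in PGC-1a4 under PBS, and at 6.98, 7.31 and 7.24 and 6.95, 6.92 and 6.81 under TNF (difference -2.59 ± 0.17, adjusted p = 4.9e-07). Under PBS the PGC-1a4 arrays stood above all vector arrays, and under TNF they stood just below all of them. Elmod3 (-1.88 ± 0.17), Rabepk (-1.63 ± 0.16), Pcdh17 (-1.61 ± 0.17) Eogt (-1.45 ± 0.14), Lcorl (-1.45 ± 0.31) and the sialyltransferase St8sia4 (-1.51 ± 0.17) were also among the 10 lowest. A second probe set of Eogt and of St8sia4 gave differences of 0.46 and 0.13 that did not pass.

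Set against the cells with PGC-1a1, the full-length form, the response of PGC-1a4 cells differed in 3068 genes (19.8%), 1956 above (12.6%) and 1112 below (7.18%), with 517 at least 2-fold (3.34%), 322 above (2.08%) and 195 below (1.26%). After cyclic loess the split turned to 1602 above and 1734 below. The responses correlated at r = 0.866 across genes, and of the 3262 genes 3130 were called the same way in PGC-1a1 cells, where 69.6% of all genes were called, and 22 the opposite way. Sema3e rose by 3.99 in PGC-1a4 and had levels of 7.50, 7.56 and 7.87 under PBS and 7.86, 7.97 and 8.17 under TNF in PGC-1a1 (difference 3.64 ± 0.18, adjusted p = 1.4e-09). Cxcl10 responded more in PGC-1a4 by 2.23 ± 0.24, Cxcl3 by 1.88 ± 0.41 and Nfkbia by 1.44 ± 0.15, while Ccl2 (0.39 ± 0.39), Ccl20 (0.57 ± 0.43), Cxcl1 (0.45 ± 0.40) and Icam1 (-0.02 ± 0.21) did not pass, so that differences of that size were not resolved here. With its probe set of largest interquartile range Nfkbia was at 0.43 and did not pass. The transcription factor Tead2 (2.64 ± 0.33), Tcim (2.33 ± 0.22), the carboxylesterase Ces1d (2.26 ± 0.32), the pseudokinase Trib2 (2.25 ± 0.23), Nexmif (2.24 ± 0.26), keratin 20 (Krt20, 2.24 ± 0.17), the hyaluronan receptor Cd44 (2.11 ± 0.22) and neurotensin (Nts, 2.10 ± 0.23) completed the 10 highest.

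Of the 30 fatty acid oxidation genes and PPAR targets, 3 responded above PGC-1a1 and 11 below it, against 12.6% and 7.18% of all genes. Other lists were split as well. Above and below lay 16 and 0 of 24 NRF2 targets and glutathione genes, and 14 and 4 of 27 actin genes. AP-1 and immediate early genes had 15 and 0 of 26, with 1 below without PGC-1a1 TNF replicate 1 or PBS replicate 2. The respiratory chain had 0 and 23 of 69, and complement and coagulation 0 and 10 of 26. For the 18 gluconeogenesis and glycogen genes it was 4 above and 3 below, with 2 above after quantile normalization or without any 1 of PGC-1a4 PBS replicate 2, PGC-1a1 TNF replicate 1 and PGC-1a1 PBS replicate 3. Pck1, the enzyme that commits to gluconeogenesis, went from 6.06, 5.98 and 6.28 to 8.65, 8.82 and 8.88 in PGC-1a1, and from 6.18, 5.77 and 6.09 to 5.25, 5.09 and 5.03 in PGC-1a4, a difference of -3.57 ± 0.17 (adjusted p = 7.4e-10). Upp2, uridine phosphorylase, went from 4.53, 4.63 and 4.64 to 9.38, 9.003 and 8.97 in PGC-1a1 and stayed below the lower quartile of the arrays in PGC-1a4 (difference -4.26 ± 0.15). G6pc differed by -2.21 ± 0.25, Ppp1r3b by -2.22 ± 0.21, Hnf4a by -1.16 ± 0.15, the lipid droplet protein Plin5 by -2.63 ± 0.17 and Fabp3 by -2.35 ± 0.27. Cpn2 (-2.73 ± 0.17), Psg28 (-2.68 ± 0.17), Kynu (-2.55 ± 0.25), Kifc3 (-2.54 ± 0.13), Eogt (-2.46 ± 0.14) and Gata3 (-2.44 ± 0.18, with PGC-1a4 means below the lower quartile) completed the 10 lowest, and the second probe set of Eogt gave -0.33 and did not pass. Hspa1b stood above PGC-1a1 by 1.28 ± 0.18, the reverse of its order against vector.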

How the data were processed

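The authors deposited 1 table of log2 values (RMA, affy, as named in the submitters' processing notes) for 18 Affymetrix arrays in 6 groups of 3. No tool version or genome build is stated there. The table analysed, which may hold only part of the array's probe sets, had 33246 rows, and 1 incomplete row, the last, was left out. Of the other 33245 probe sets, 25951 named 1 gene, 686 several and 6608 none in the platform annotation, and 25803 were matched to RefSeq by identifier. The 15491 genes were each read from 1 probe set, the brightest on average; 6488 had several.

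The deposited values were used unchanged. A model with 1 mean per group over 18 arrays was fitted with limma 3.58.1 in R 4.3.3, with 12 residual and 5.08 prior degrees of freedom, two-sided, with Benjamini-Hochberg adjustment over all genes within each contrast. Responses were compared as differences of differences. Gene lists (40, with 933 of 1165 entries measured) and the comparison itself were chosen with earlier results of these data known. Genes were named by rule: the 15 highest and lowest differences, list members, the 10 highest and lowest differences of response, and the 15 highest levels under PBS at 2-fold. Predicted genes and pseudogenes (1495) were counted and not named. Scaling, probe set choice, filters, thresholds, weights, the replicate block and single arrays left out were the alternatives. The number of arrays limits the precision.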

Additional observations from a re-analysis of the deposited data

Results flagged for a closer look

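The results gathered here stand out because the response to TNF, TNF minus PBS, differed between cell groups by a test of the difference itself (limma, adjusted p under 0.05). Values are differences of log2 responses. Against vector 2480 genes passed, and 42 of the 45 genes given above in this contrast were among them, a count set in part by the naming rule. The response of PGC-1a4 cells was higher, from the widest difference down, for Iigp1 (2.81), Rsad2 (2.51), Glyctk (2.46), Maob (2.25), Ubd (2.25), Cxcl10 (2.23), Fgf13 (2.196), Tlr2 (2.14), Cxcl5 (1.99), Ccl9 (1.97) and Ccl20 (1.87). Smaller differences above vector were those of Ccl2 (1.85), Gbp6 (1.85), Crp (1.80), Steap4 (1.77), Gbp2 (1.71), Cxcl1 (1.66), Hp (1.63), Ikbke (1.502), Hnf4a (1.41), Tnfaip3 (1.35) and Birc2 (1.19). Then came G6pc (1.14), Irf1 (1.13), Serpina3n (1.08), Nfkbie (1.04), Lrg1 (1.02), Nfkbia (0.93) and Tnip1 (0.71). It was lower for Psg28 (-2.59), Hspa1b (-2.43), Elmod3 (-1.88), Rabepk (-1.63), Pcdh17 (-1.61), St8sia4 (-1.51), Eogt (-1.45), Lcorl (-1.45), Dusp6 (-0.93), Egr1 (-0.90), Maff (-0.80), Cxcl12 (-0.73) and Pdia4 (-0.50).

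Against PGC-1a1 3068 genes passed, and 26 of the 30 genes given above in this contrast are among them, a count set in part by the same rule. The PGC-1a4 response was above that of PGC-1a1 for Sema3e (3.64), Tead2 (2.64), Tcim (2.33), Ces1d (2.26), Trib2 (2.25), Nexmif (2.24), Krt20 (2.24), Cxcl10 (2.23), Cd44 (2.11), Nts (2.10), Cxcl3 (1.88), Nfkbia (1.44) and Hspa1b (1.28). It was below for Upp2 (-4.26), Pck1 (-3.57), Cpn2 (-2.73), Psg28 (-2.68), Plin5 (-2.63), Kynu (-2.55), Kifc3 (-2.54), Eogt (-2.46), Gata3 (-2.44), Fabp3 (-2.35), Ppp1r3b (-2.22), G6pc (-2.21) and Hnf4a (-1.16). Both comparisons use the same 6 arrays of PGC-1a4 cells, so their values are not independent of each other.

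Signal also appeared in data that the comparisons above did not use. Of the 6608 probe sets that name no gene, 3804 were called between the TNF and PBS arrays of PGC-1a4 cells, 1060 higher and 2744 lower, and 279 and 644 of them differed at least 2-fold. That was a smaller share than the 70.2% called among the 15491 genes. In the lowest of the 4 groups of genes by level, lower calls also outnumbered higher ones, 1470 against 500. Whether level entered the split of these probe sets was not tested. Groups of 3 arrays are too small for a test of single outlying arrays.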

How the results depend on the processing

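Results were recomputed under each alternative, 1 choice at a time. The count of genes at least 2-fold (3262) stayed within 1.5 times under every alternative run, between 2232 and 4376. The count of all called genes left that range with only genes above the median level (6412, 4580 higher and 1832 lower), where fewer genes were tested, and at a minimum of 1.5-fold (6932). The count against vector moved to 1215 at an adjusted p under 0.01 and to 1463 at 1.5-fold, and that against PGC-1a1 to 1789 and 1796, since these rules are stricter. Leaving out 1 array at a time gave 10157 to 10481 genes called, 3218 to 3358 at 2-fold, 1964 to 2488 against vector and 2517 to 2818 against PGC-1a1. Scaling moved the split of directions: cyclic loess gave 5101 higher and 5161 lower, and at 2-fold centring on medians gave 2862 higher and 642 lower, against 2175 and 1087. Against vector the split of 1841 above and 639 below became 1387 and 1111 under cyclic loess. Of 299 values given for genes, quantile normalization kept 280 on their side of the threshold and cyclic loess 276. Values that turned under quantile normalization were those of Crp (-0.38), Cxcl16 (-0.14), Jun (-0.19), Junb (-0.13), Tnfrsf1a (-0.27) and Xiap (-0.33). Under cyclic loess they were those of Casp8 (-0.0083), Crp (-0.45), Cxcl16 (-0.15), Jun (-0.22), Junb (-0.15), Nfkbia (-0.014), Tnfrsf1a (-0.34) and Xiap (-0.38). With the probe set of largest interquartile range, the differences of response against vector of Eogt (0.46) and St8sia4 (0.13) turned. The cause of these turns was not tested. Same-numbered arrays of the PGC-1a4 PBS and TNF groups deviated with correlations of 0.020, 0.021 and -0.0073, so no shared replicate effect was visible. These correlations cannot tell whether the samples were paired. Fitting the replicate block gave 10864, 3262, 2436 and 2992 genes for the 4 counts and changed none of the 299 values' calls. Dim genes were limited by signal over background, which the analysed table does not give.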
